A study of Mus musculus with 8 samples.

Results

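Pax6 binding sites at 10 genes for G protein-coupled receptors of the pancreatic islet were examined in alphaTC1 cells, a mouse glucagon-producing alpha-cell line. The genes were Gpr119, Gipr, Gcgr, Ffar1, Avpr1b, Casr, Adra2a, Sstr2, Sstr3 and Sstr5. A site belonged to a gene when the authors' deposited table named that gene as its nearest; 27 of 26244 sites did so, at 9 of the 10 genes, and Sstr5 had 0 sites. Chromatin immunoprecipitation with sequencing (ChIP-seq) against Pax6 had been done in 2 libraries from cells given antisense oligonucleotides with a scrambled sequence (control knockdown, control KD) and in 2 libraries from cells given oligonucleotides targeting Paupar (Paupar KD). Paupar is a long non-coding RNA made from the locus beside Pax6. The series' design text calls them biological duplicates; both groups are 1 cell line and both received oligonucleotides. Each group also has 2 input libraries, not analysed here. The labelled cell type was not checked against marker RNA, which a binding assay does not measure.

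Pax6 is a transcription factor with a paired domain and a homeodomain that islet endocrine cells need for their development and hormone genes. The receptors let hormones, nutrients and nerve signals adjust hormone release. Gpr119, Gipr and Gcgr couple mainly to Gs, which raises cyclic AMP. Ffar1, Avpr1b and Casr couple mainly to Gq, which releases calcium from stores. Adra2a and the somatostatin receptors Sstr2, Sstr3 and Sstr5 couple to Gi and restrain secretion.

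RefSeq promoter windows (GRCm38.p6, 250 bases before to 50 after a gene start) were given for 7 of the genes, 8 windows in all. The stretches upstream of the start at Gpr119 and Adra2a are shown because these were the genes with a called site. The Gpr119 stretch (chrX:48674479-48674728, minus strand, 250 bases) lies between the 2 listed Gpr119 sites. The Adra2a stretch (chr19:54045009-54045181, plus strand, 173 bases) lies beside the strongest site of all 27. The closest listed site is 136 bp from the Gpr119 window and 204 bp from the Adra2a window, so these are neighbouring bases and not the site itself.
Gpr119: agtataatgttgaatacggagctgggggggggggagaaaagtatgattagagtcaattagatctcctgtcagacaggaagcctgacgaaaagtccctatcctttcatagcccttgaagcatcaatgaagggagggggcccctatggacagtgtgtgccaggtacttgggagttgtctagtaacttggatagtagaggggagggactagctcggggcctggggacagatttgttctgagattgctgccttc
Adra2a: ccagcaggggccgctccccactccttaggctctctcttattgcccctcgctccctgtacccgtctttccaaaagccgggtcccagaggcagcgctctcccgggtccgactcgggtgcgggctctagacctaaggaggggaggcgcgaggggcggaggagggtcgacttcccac
Letters known from Pax6 motifs were searched on both strands of the 300-base windows: the paired domain core TTCACGC, its shorter form TCACGC (which every TTCACGC also holds), the homeodomain letters TAATTA, and the palindromic homeodomain P3 site. None of the 8 windows held any of them, so no letter above is in capitals. Over all 32851 windows of the same length the shares were 1.26% for TTCACGC, 6.68% for TCACGC, 5.29% for TAATTA and 0.487% for the P3 site. The bases of the sites themselves were not searched. GC content was 50.4% in the Gpr119 stretch and 67.6% in the Adra2a stretch.

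The comparison of control KD with Paupar KD asks whether Pax6 occupancy at the receptor genes differed when Paupar was targeted. A concentration here is the authors' log2 mean signal of a group at a 100-bp site, and a log2 change is the Paupar KD concentration minus the control KD one. At a false discovery rate (FDR) below 0.05, 2 of the 27 sites were higher after Paupar KD and 0 were lower per the authors' deposited table. The higher sites were 1 of the 2 at Gpr119 and 1 of the 4 at Adra2a; at an FDR below 0.01 neither was called. Over all 26244 sites, 3.26% were higher and 0.846% lower by the same rule, against 7.41% and 0% here, a share that rests on 2 sites. At an unadjusted p below 0.05 the counts per the authors' deposited table were 3 higher and 4 lower, beside 10.7% and 6.67% of all sites.

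The median log2 change of the 27 sites was -0.14, beside -0.03 over all sites, with 11 sites above 0 and 16 below per the authors' deposited table. The sign of the change went with the strength of the site, as it did over the whole table. Of the 8 receptor sites in the 2 highest deciles of mean signal, 7 had a log2 change below 0 per the authors' deposited table, and 79.2% of all 5225 sites in those deciles did. Against the median of the sites in the same decile of mean signal, 12 receptor sites lay above and 15 below. Promoter sites made up 11 of the 27 (40.7%), beside 27.5% of all sites, and 8 of these 11 (72.7%) had a log2 change below 0 per the authors' deposited table, beside 64.3% of all 7216 promoter sites.

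**Figure D1:**
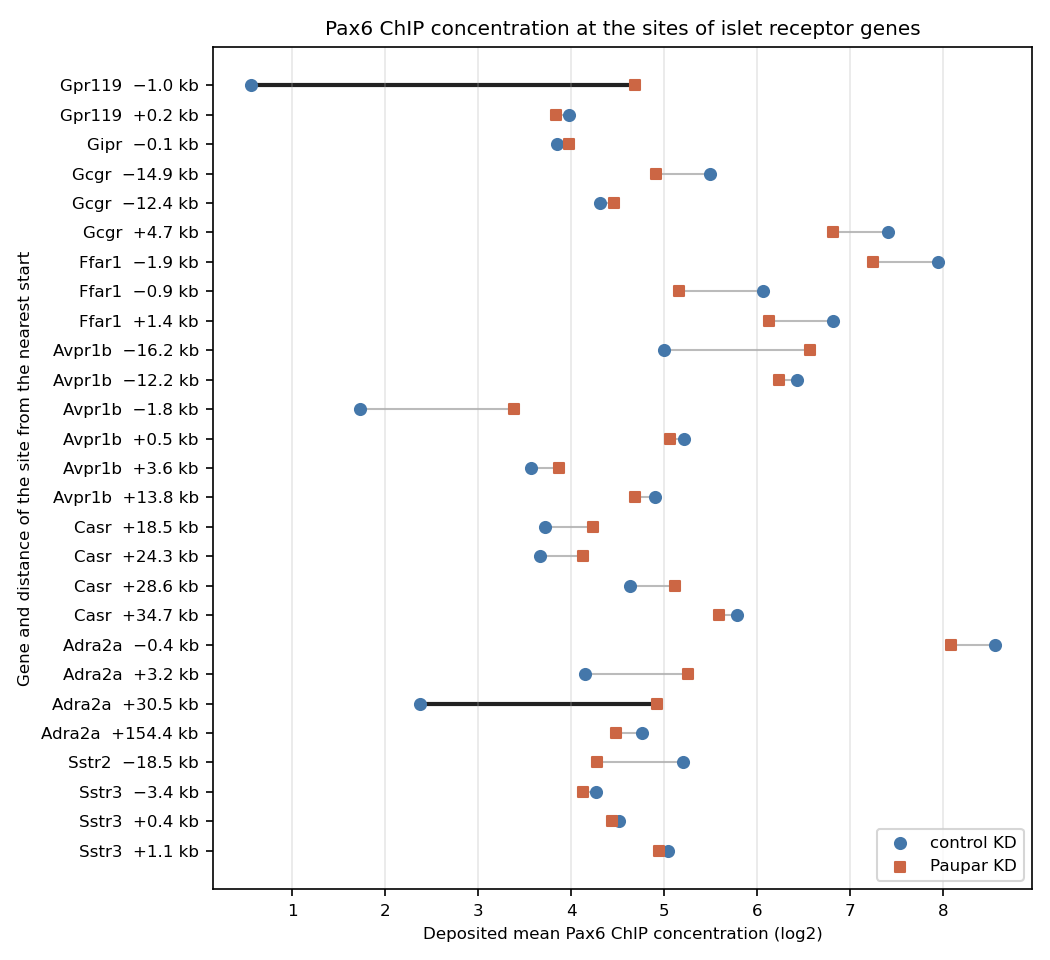
Deposited log2 mean concentration of each of the 27 sites (rows, by gene and signed distance from the nearest start) in control KD (circles) and Paupar KD (squares), joined by a line that is dark and thick where the FDR is below 0.05. The longest lines are the Gpr119 site upstream of its start (0.55 and 4.69) and the Adra2a site at 30.5 kb (2.37 and 4.92), while the strongest sites have the circle to the right of the square; the table gives 1 value per group and no error bar.

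**Figure D2:**
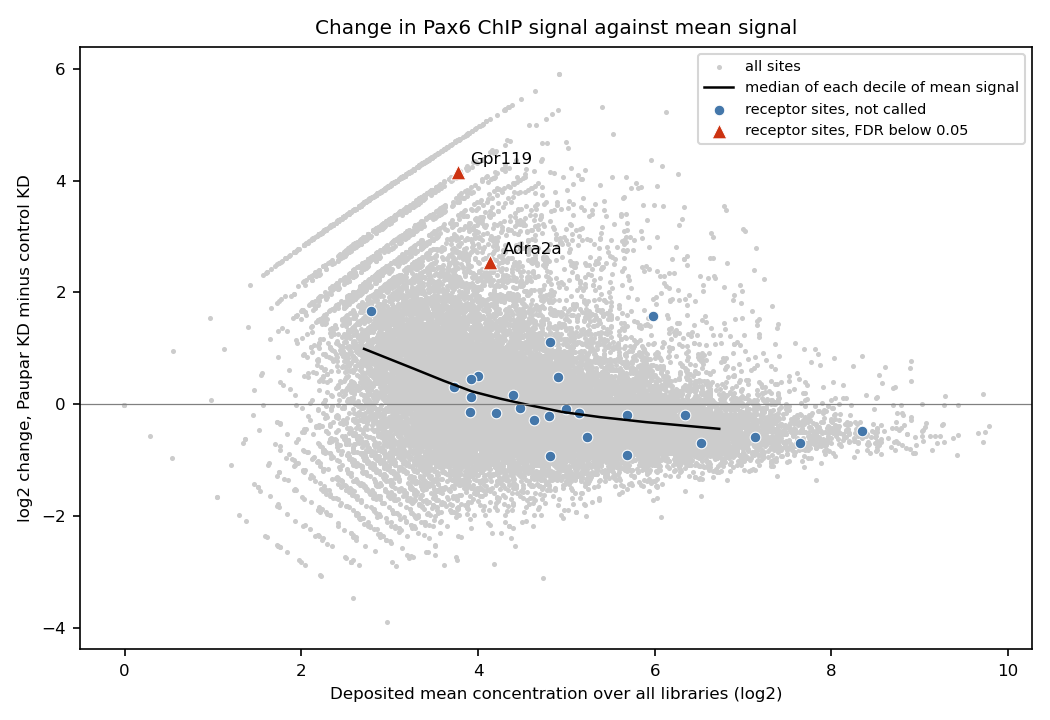
Log2 change (Paupar KD minus control KD, vertical) against the deposited mean concentration over all libraries (log2, horizontal) for all 26244 sites in grey, receptor sites in colour, with the median of each decile of mean signal as a line from 0.99 in the lowest decile to -0.44 in the highest. The 2 called receptor sites lie far above the line, at mean concentrations of 3.77 (Gpr119) and 4.14 (Adra2a), and the receptor sites in the highest decile lie near it.

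Among the Gs-coupled receptors, Gpr119, whose product senses fatty acid amides, carried the larger of both called changes. Its upstream site, 1015 bp before the start (chromosome X, 48675493 to 48675592, mm10, annotated as promoter), had concentrations of 0.55 under control KD and 4.69 under Paupar KD (p = 0.000173, FDR 0.0104 by the authors' own test) per the authors' deposited table. Both Paupar KD libraries had a summit there, with scores of 13.1 and 13.9, and neither control KD library did. The score is the authors' −log10 q-value of a peak summit called in that library. The log2 change was 4.15, but its size is uncertain, because 0.55 is the first value above the lowest one of the control KD column (-0.01) per the authors' deposited table. Exactly 0.55 stood at 174 sites in control KD, of which 34 (19.5%) were higher after Paupar KD per the authors' deposited table.

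The other Gpr119 site lay 185 bp inside the gene (48674194 to 48674293) and had 3.98 and 3.84 (FDR 0.952) per the authors' deposited table. Its summits lay within 250 bp of the middle in control KD replicate 1 (score 5.83) and Paupar KD replicate 2 (score 8.81). The remaining libraries had theirs 353 bp away (control KD replicate 2, score 7.29) and 265 bp away (Paupar KD replicate 1, score 9.56). All 4 libraries thus had a summit within 500 bp of the middle of this site, and of the 2 Gpr119 sites the upstream one alone was called.

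Gipr encodes the receptor for the incretin hormone GIP. The gene had 1 site, 95 bp before the start of 1 of its transcripts and inside the RefSeq gene body (chromosome 7, 19165189 to 19165288), with 3.85 under control KD and 3.98 under Paupar KD (FDR 0.956) per the authors' deposited table. A summit was called there in Paupar KD replicate 2 and no other library, with a score of 3.33 that was higher than only 6.73% of its list.

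Gcgr, the glucagon receptor gene, had 3 sites, each annotated as distal intergenic. The strongest (chromosome 11, 120539403 to 120539502) lay just past the 3′ end of the gene, 4.72 kb from the start of a shorter transcript, and had 7.41 under control KD and 6.82 under Paupar KD (p = 0.0508, FDR 0.288) per the authors' deposited table. Its summit scores were 47.9 and 47.2 in control KD and 32.3 and 68.8 in Paupar KD, so the scores of both groups overlapped. The upstream sites, 14.9 and 12.4 kb before the start, had 5.49 and 4.91 (FDR 0.627) and 4.31 and 4.46 (FDR 0.934) per the authors' deposited table. For both of them the nearest RefSeq gene body was Gm39490 and not Gcgr, and Paupar KD replicate 2 alone had a summit. At the site 14.9 kb upstream that single Paupar KD summit stood beside a control KD concentration that was the higher one.

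Ffar1, the long-chain fatty acid receptor gene also called GPR40, was the Gq-coupled receptor gene with the strongest sites. Its 3 sites lay within 3.56 kb around the start on chromosome 7, and all had a summit in all 4 libraries. The site 1946 bp upstream (30863510 to 30863609) had 7.95 under control KD and 7.25 under Paupar KD (p = 0.00789, FDR 0.105) per the authors' deposited table. Its summit scores were 142 and 121 in control KD and 91.6 and 111 in Paupar KD, each above at least 97.5% of its own list. The site 1415 bp inside the transcript (30860050 to 30860149) had 6.82 and 6.13 (p = 0.0345, FDR 0.234), and the site 939 bp upstream (30862503 to 30862602) had 6.07 and 5.16 (p = 0.0404, FDR 0.255), per the authors' deposited table.

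Every Ffar1 site therefore had a lower concentration in Paupar KD, by log2 differences of -0.70, -0.91 and -0.70, and none passed the FDR threshold. Sites of the same deciles of mean signal had median log2 changes of -0.44 (highest decile, which holds the sites at 1946 and 1415 bp) and -0.32 per the authors' deposited table. The summit scores did not separate the groups at the weaker sites: they were 25.7 and 34.4 in control KD and 20.7 and 40.5 in Paupar KD at 1415 bp, and 12.6 and 14.9 against 17.3 and 11.0 at 939 bp. Scores of separate lists were not compared by a test at any Ffar1 site. The middle of the site at 1415 bp lay 469 bp past the 3′ end of the RefSeq gene body of Ffar1. By gene body, the site at 1946 bp was nearer to Cd22 than to Ffar1.

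Avpr1b, the vasopressin receptor of pituitary corticotrophs that also acts in islets, had the most sites, 6 over 30.8 kb of chromosome 1. The strongest, 12.2 kb upstream (131586960 to 131587059), had 6.43 and 6.24 (FDR 0.834) per the authors' deposited table, with summits in all 4 libraries (scores 34.7 and 44.0 in control KD, 31.4 and 40.9 in Paupar KD). The site 16.2 kb upstream (131582891 to 131582990) had 5.0 under control KD and 6.57 under Paupar KD (p = 0.0581, FDR 0.310) per the authors' deposited table. At that site Paupar KD replicate 1 had a summit 109 bp from the middle with a score of 71.4. The other 3 libraries had theirs 392 to 496 bp from the middle, with scores of 22.1 and 14.7 in control KD and 29.4 in Paupar KD replicate 2. The 100-bp window was thus close to the summit of a single library.

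The remaining 4 Avpr1b sites had log2 changes of -0.21 to 1.66 and FDRs of 0.512 to 0.930 per the authors' deposited table. The largest of these, 1793 bp upstream (131597347 to 131597446), had 1.73 and 3.39 and was the only one of the 27 sites with no summit within 250 bp in any library. A summit of Paupar KD replicate 2 (score 3.88) lay just past that limit, 253 bp from the middle. The site 480 bp past the start of a shorter transcript, inside the RefSeq gene body (131600203 to 131600302), had 5.21 and 5.06 (FDR 0.930) per the authors' deposited table. Within 250 bp of its middle, control KD replicate 2 alone had a summit (score 3.22). Summits of the remaining libraries lay 269 to 323 bp away, with scores of 14 in control KD replicate 1 and 14.3 and 9.02 in Paupar KD.

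Casr, the extracellular calcium-sensing receptor gene, had 4 sites, all in intron 1 and spread over 16.2 kb of chromosome 16. The strongest (36526837 to 36526936) had 5.78 under control KD and 5.59 under Paupar KD (FDR 0.857) per the authors' deposited table, with summit scores of 34.6 and 11.0 against 21.0 and 19.4. The next (36532904 to 36533003) had 4.63 and 5.12 (FDR 0.719) per the authors' deposited table and also a summit in each library, scoring 14.7 and 7.29 in control KD and 38.3 and 20.8 in Paupar KD. Both Paupar KD scores there were higher than both control KD scores, but scores of separate lists were not compared by a test. The weaker sites had 3.67 and 4.13 (FDR 0.825) and 3.72 and 4.23 (FDR 0.792) per the authors' deposited table.

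Adra2a encodes the alpha-2A adrenergic receptor, through which adrenaline and noradrenaline act on islet cells. Its promoter site, 377 bp before the start (chromosome 19, 54044706 to 54044805), was the strongest of the 27, with 8.56 under control KD and 8.09 under Paupar KD (p = 0.0368, FDR 0.242) per the authors' deposited table. Its mean concentration ranked above 99.6% of all sites, and its summits scored 165 and 149 in control KD and 141 and 190 in Paupar KD. The groups overlapped in these scores, and the log2 change of -0.47 was near the median of -0.44 for the highest decile of mean signal.

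The called Adra2a site lay 30.5 kb downstream of the start in intergenic sequence (54075712 to 54075811). It had 2.37 under control KD and 4.92 under Paupar KD, a log2 change of 2.54 (p = 0.00196, FDR 0.0477), per the authors' deposited table. A summit was called there in Paupar KD replicate 2 alone (score 21.5, above 79.3% of its list), and in neither control KD library nor Paupar KD replicate 1. The call lay close under the threshold, and with group means only it could not be refitted without that library. Of the 3162 sites with a control KD concentration of 2.37 or less, 453 (14.3%) were higher per the authors' deposited table.

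At the site in the 3′ UTR of Adra2a (54048403 to 54048502) the concentrations were 4.15 and 5.26 (p = 0.0441, FDR 0.266) per the authors' deposited table. It had a summit in both Paupar KD libraries (scores 5.33 and 10) and in no control KD library, as the upstream Gpr119 site did. The remaining Adra2a site, 154 kb downstream, had 4.76 and 4.48 (FDR 0.883) per the authors' deposited table and lay inside the predicted gene Gm41866. Within this 1 gene, the promoter site and the called distal site thus had log2 changes of opposite sign, -0.47 and 2.54, and the difference between them was not tested. Changes of both signs also occurred among the sites of Gpr119, Gcgr, Avpr1b and Casr, where no site below 0 was called. Against the median of the same decile of mean signal, the Casr sites all lay above (0.12, 0.63, 0.23 and 0.27). The sites of Adra2a, Gpr119, Gcgr and Avpr1b still lay on both sides of it.

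The somatostatin receptor genes had 4 sites in all, 1 at Sstr2 and 3 at Sstr3, and none was called. Sstr2, which mediates much of the inhibition of glucagon release by somatostatin, had 1 site, 18.5 kb upstream in intron 1 of the zinc transporter gene Slc39a11 (chromosome 11, 113600719 to 113600818). It had 5.20 under control KD and 4.28 under Paupar KD (FDR 0.447) per the authors' deposited table, with a summit in control KD replicate 2 (score 5.64) and Paupar KD replicate 1 (score 5.11). Sstr3 had 3 sites on chromosome 15, with 5.04 and 4.95 (FDR 0.958; 78541806 to 78541905), 4.51 and 4.44 (FDR 0.976; 78544175 to 78544274) and 4.27 and 4.13 (FDR 0.944; 78548114 to 78548213) per the authors' deposited table. Their log2 changes, -0.09, -0.07 and -0.15, were the closest to 0 of any gene with 2 or more sites.

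Sstr5 (chromosome 17, 25489875 to 25497288 in RefSeq) had 0 listed sites, and 0 summits of any library lay in the gene or within 5 kb of it. The nearest site of another gene was 10.8 kb away, assigned to Gm33727, with 3.72 and 3.64 (FDR 0.972) per the authors' deposited table. In total 10 sites of other genes lay within 100 kb of Sstr5, and none was called per the authors' deposited table.

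**Figure D3:**
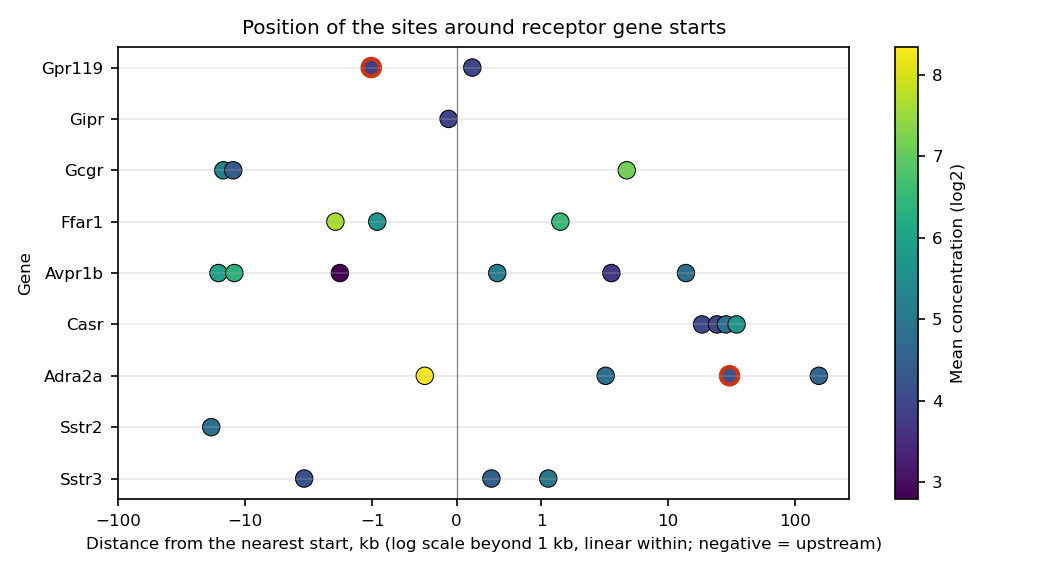
Position of the 27 sites by gene (rows) as signed distance from the nearest start in kb (log scale beyond 1 kb, linear within), coloured by mean concentration (log2), with a thick red rim at an FDR below 0.05. Ffar1, Gipr and Sstr3 sites lie close to a start, Casr sites lie 18.5 to 34.7 kb inside the gene, and the called sites are at -1015 bp (Gpr119) and 30530 bp (Adra2a).

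Support by single libraries was looked at because it is the only measure given per library. Of the 27 sites, 26 had a summit within 250 bp in at least 1 library, 8 in all 4 and 9 in exactly 1, beside 25314, 5250 and 11511 of all 26244 sites. Summits were found at 14 and 10 of the sites in the control KD libraries and at 18 and 20 in the Paupar KD libraries. Over all 26244 sites the counts were 13112 and 9148 in control KD and 14270 and 16572 in Paupar KD. Both Paupar KD counts were thus above both control KD counts over the whole table too. Whether the difference between groups was larger at the receptor sites was not tested. The whole lists held 14311 and 9983 summits in control KD and 15611 and 17942 in Paupar KD, so the lengths of the lists differ in the same direction; their part in the difference was not tested. A summit in both Paupar KD lists and neither control KD list was found at 2 sites (7.41%, beside 8.26% of all sites), upstream of Gpr119 and in the 3′ UTR of Adra2a. The reverse pattern was found at 0 sites (1.47% of all). With 2 against 2 libraries no exact test could pass the usual threshold, and none was run.

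**Figure D4:**
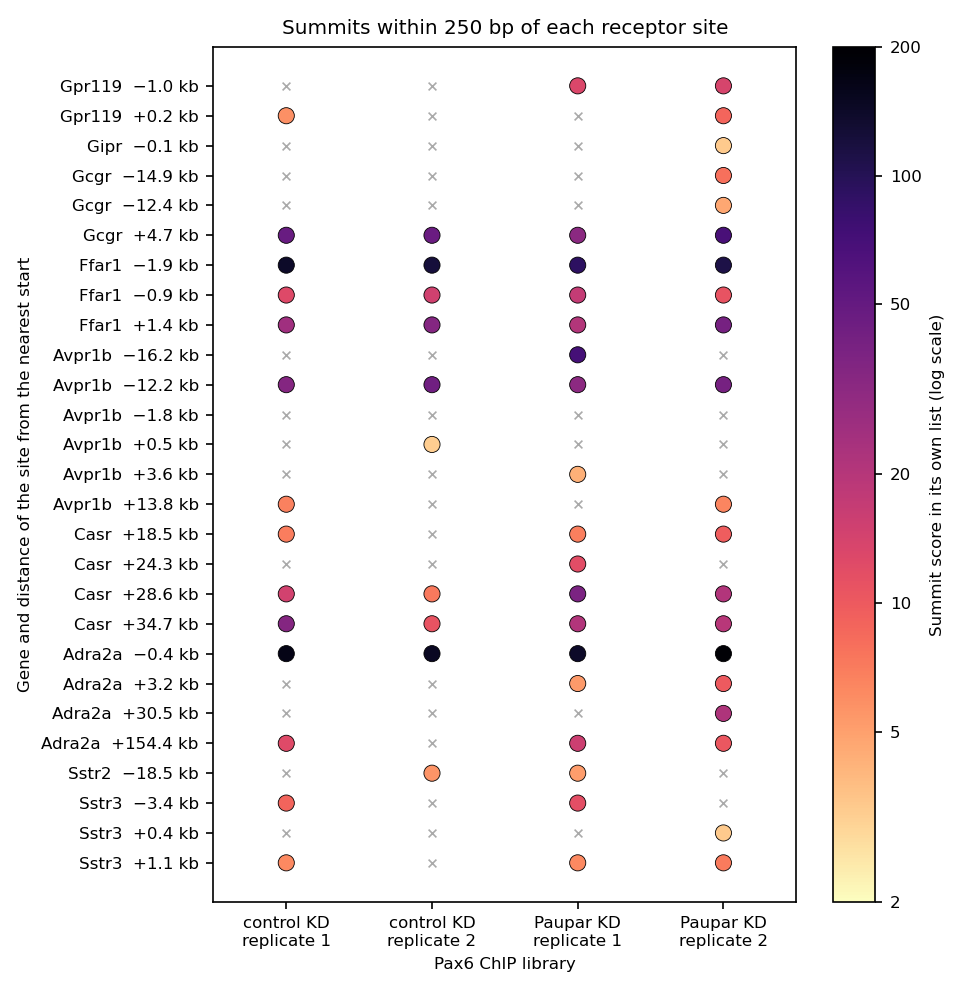
Summits within 250 bp of the middle of each of the 27 sites (rows) in the 4 Pax6 ChIP libraries (columns); filled circles are coloured by the authors' summit score on a log scale and grey crosses mark no summit. The 3 Ffar1 sites, the Adra2a promoter, the Gcgr site past the gene, 1 Avpr1b site and 2 Casr sites have a circle in every column, and the upstream Gpr119 site only in both Paupar KD columns.

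The 8 sites found in all 4 libraries were the 3 of Ffar1, 2 of Casr and 1 each of Adra2a, Gcgr and Avpr1b. Their median log2 change was -0.53, with 7 of 8 below 0, and 0 were called per the authors' deposited table. Over the 5250 sites of the whole table with summits in all 4 libraries the median was -0.29, 3674 were below 0, and 1.79% were called higher and 2.42% lower. The 8 receptor sites were also stronger, with a median mean concentration of 6.43 beside 5.90. Over all sites in the 2 highest deciles of mean signal the median log2 change was -0.39. Both called receptor sites were outside this group, which their low control KD concentrations made likely beforehand. Of the 3162 sites of the whole table with a control KD concentration of 2.37 or less, 1 (0.0316%) had a summit in all 4 libraries.

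Other receptors known from islets, 97 symbols in all, had 152 sites at 53 genes, of which 7 were higher and 4 lower (4.61% and 2.63%) per the authors' deposited table. Their median log2 change was -0.08. The largest number of calls was at Galr1, the receptor gene for the inhibitory neuropeptide galanin, with 2 higher sites (0.61 and 5.73, FDR 5.18e-05; 4.95 and 6.35, FDR 0.0261) and 1 lower site (7.17 and 6.19, FDR 0.0449) per the authors' deposited table. The Galr1 sites thus did not share a sign, with calls in both directions. Signs also differed within Adra2a, Gpr119, Gcgr, Avpr1b and Casr, but none of their sites was called lower. Higher sites were also assigned to Adra1b, an alpha-1 adrenergic receptor gene (3.08 and 6.0, FDR 5.5e-05), Gper1 (5.66 and 7.14, FDR 0.000579) and the chemokine receptor gene Cxcr4 (1.55 and 5.23, FDR 0.00181) per the authors' deposited table. The Gper1 site lay in an intron of 3110082I17Rik, and the Cxcr4 site was intergenic, 30.7 kb from the start. Ednra, an endothelin receptor gene, had 2 higher sites with control KD at the floor (-0.01) and Paupar KD at 4.78 (FDR 0.00792) and 5.02 (FDR 0.0142) per the authors' deposited table. Lower sites were assigned to Gprc5c (7.48 and 6.31, FDR 0.00450), the glutamate receptor gene Grm4 (5.69 and 4.10, FDR 0.0448) and the corticotropin-releasing hormone receptor gene Crhr1 (5.34 and 3.51, FDR 0.0459) per the authors' deposited table. Those of Gprc5c and Crhr1 were intergenic, 11 and 33 kb from the start. The strongest sites of that list, assigned to Vipr1 (8.11 and 8.22, FDR 0.871), Adrb1 (8.11 and 7.40, FDR 0.0794) and the Gprc5c promoter (7.60 and 7.09, FDR 0.253), were not called per the authors' deposited table. The Adrb1 site was intergenic, 70 kb from the start.

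Genes for G protein subunits, their regulators and effectors (54 symbols) had 131 sites at 39 genes, with 6 higher and 0 lower (4.58% and 0%), and a median log2 change of -0.04, per the authors' deposited table. Gnai1, which encodes an inhibitory G protein alpha subunit, had 1.97 and 5.56 (FDR 0.00034) at a site 5.23 kb upstream per the authors' deposited table. Rgs4, a gene for a protein that speeds the switching-off of Gi and Gq, had 2 higher promoter sites per the authors' deposited table, one with 1.04 and 4.84 (FDR 0.0228) and the other with control KD at the floor and Paupar KD at 4.16 (FDR 0.0446). At these 3 sites the only summit was that of Paupar KD replicate 1. The phospholipase C genes Plcb1 (1.37 and 4.60, FDR 0.0275) and Plcb4 (3.33 and 5.46, FDR 0.0350) and the regulator gene Rgs7 (4.28 and 5.85, FDR 0.0454) had 1 higher site each per the authors' deposited table. The strongest sites, at Rgs3 (8.20 and 7.51, FDR 0.0704), Gng7 (7.12 and 6.81, FDR 0.660) and Gnaz (7.08 and 6.41, FDR 0.255), were not called per the authors' deposited table.

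Assignment to a nearest gene leaves other genes within reach of the same sites. Within 100 kb of the receptor genes, sites assigned to other genes numbered 0 at Adra2a and 1 at Gpr119, and up to 13 at Sstr3. Of these 66 sites, 1 was higher (1.52%, beside 3.26% of all sites), in an intron of Cog1 41.3 kb from Sstr2 (3.60 and 6.13, FDR 0.000257), and 1 was lower (1.52%, beside 0.846%), at the promoter of Fbxo46 36.1 kb from Gipr (6.29 and 4.85, FDR 0.0449), per the authors' deposited table. The only neighbour of Gpr119, a site of Slc25a14, had 4.70 and 4.72 (FDR 0.992) per the authors' deposited table.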

How the data were processed

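Pax6 ChIP-seq was analysed in 4 libraries, 2 per group; the members, lists and tests were chosen with earlier results of these data known. The submitters' processing notes name Bowtie2, MACS2, DiffBind, ChIPseeker and build mm10, with no versions, and with settings, between-library normalization and use of input not given in the sources used here. Concentrations and a fold were deposited by the authors and read as log2 values because the fold equals the difference of both concentrations within 0.011 at all 26244 sites; the fold was turned to Paupar KD minus control KD. The p-value and FDR are the authors' deposited ones, and no test of sites was run, since group means allow none. The deposited −log10 of the FDR was not needed. Summit scores are the authors' −log10 q-values, read so from their lowest value of 2.0 to 2.01. For control KD replicate 2, the names inside the summit list and the sample title differ in number, and the title was followed. The signed distance score to the nearest start is the authors' deposited annotation.

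Library depth is unknown, and no counting intervals were formed. Summits within 250 bp of the middle of a site were matched, the highest score being kept (checked on simulated data). Deciles of mean signal were formed over all sites. All listed sites of the 10 genes are described; from the other lists, genes with a called site and the 3 with the strongest sites. All 10 symbols matched the RefSeq table of GRCm38.p6. Python 3.11.15 with pandas 2.3.3 was used.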

Additional observations from a re-analysis of the deposited data

How the results depend on the processing

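At an FDR below 0.01, 0 receptor sites were higher and 0 lower, and among sites with a summit in 2 or more libraries 1 was higher, at Gpr119, and 0 lower. At an unadjusted p below 0.05, 3 sites were higher and 4 lower. The other alternatives gave 2 higher and 0 lower sites. The median log2 change of -0.14 was -0.11 after subtracting the median of all sites, -0.03 after subtracting that of the same decile of mean signal, -0.20 over the strongest site of each gene and -0.12 within 100 kb of a start. Alternatives chosen after seeing the data gave -0.07 (sites by nearest RefSeq gene body) and -0.15 (without the 2 called sites). By gene body, 22 of the 27 sites stayed and 3 others joined. After centring on the decile, 5 of the 27 sites changed sign, 0 of them called. Sites with a summit in both Paupar KD lists and neither control KD list came to 2 to 7 when each library was left out in turn: 7 without Paupar KD replicate 1, 5 without Paupar KD replicate 2 and 5 without control KD replicate 1. Leaving out a library loosens the rule, so such a count can only stay or rise. The shares of all sites under these settings are not given here. With libraries left out, the reverse pattern gave 0 to 1, with 1 without control KD replicate 1, and sites with any summit 21 to 26. With summits matched within 100 bp or 500 bp, sites with any summit came to 20 and 27. Sites with a summit in both Paupar KD lists and neither control KD list came to 2 and 3. With summits of score 5 or more alone, these counts were 21 and 2. The reverse pattern stayed at 0 under all of these settings. Assignment by nearest RefSeq start was not run, because the gene table gives no strand. No paired analysis was possible because the deposited table holds group means and no value per library; for the same reason a library could not be left out of a call.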

Other observations

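Around the start of Avpr1b, summits were called that no listed site covers. They lay at 131599207 and 131599255 on chromosome 1 in control KD replicates 1 and 2 (scores 13.4 and 2.72) and at 131599180 in Paupar KD replicate 1 (score 18.2), 997 to 1072 bp from the middle of the nearest listed site, so the authors' deposited table gives no concentration for this position.

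The strongest site close to Sstr3 was assigned to another gene. It lay 4.28 kb beyond the RefSeq gene body and was annotated to the promoter of C1qtnf6 (chromosome 15, 78532640 to 78532739), with 7.38 under control KD and 7.85 under Paupar KD (FDR 0.304) per the authors' deposited table. Its summit scores were 110 and 88.8 in control KD and 181 and 192 in Paupar KD, far above the highest score at a site assigned to Sstr3 itself (11.7).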
